A study of Mus musculus with 14 samples.

Results

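The genes described here encode the chains of collagens and laminins. They were chosen by symbol, as the genes listed in both count tables whose names consist of Col, a number, a and a number, or of Lam, a letter from a to c and a number. Col8a1 and Col8a2 were left out. The rule gave 52 of the 24912 genes that both tables list, 41 collagen and 11 laminin genes. By family they were 11 fibrillar collagens, 6 collagen IV chains, 6 collagen VI chains, 9 fibril-associated collagens, 4 transmembrane collagens, 2 multiplexins, 3 other collagens and 5 alpha, 3 beta and 3 gamma chains of laminin. The filter on low counts left 49 of the 52 in each experiment. The 3 it removed were Col10a1, Col24a1 and Col28a1, none of which had more than 10 reads in a library.

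The dorsal hippocampus of male C57BL6 mice (C57BL6/J in the study's methods), 8 months old, was sequenced as 14 RNA-seq libraries in 6 groups. In the basal experiment untrained WT mice (basal WT, n = 3) were compared with THY-Tau22 mice (basal TAU, n = 2), which are heterozygous for a mutated human Tau that the Thy1.2 promoter drives in neurons. In the learning experiment WT mice received saline and either stayed in the home cage (WT VEH_HC, n = 3) or learned a hidden platform's place in the Morris water maze (WT VEH, n = 2). THY-Tau22 mice were trained after injections of the carbon nanosphere carrier CSP (TAU VEH, n = 2) or of CSP-TTK21, the carrier bearing an activator of the acetyltransferases CBP and p300 (TAU MOL, n = 2). Trained WT and THY-Tau22 mice thus differ in genotype and in vehicle, which cannot be told apart here, and there was no THY-Tau22 group in the home cage. Libraries that the study set aside after inspecting them are not analysed here.

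Collagens are triple helices of 3 chains that carry the tensile strength of connective tissue. Collagens I and III build the thick fibrils of meninges and of the walls of larger vessels. Collagen IV forms the sheet-like network of basement membranes, and laminins, crosses of an alpha, a beta and a gamma chain, form the second network and are the part that cells bind. In the brain these sheets lie under the endothelium and pericytes of capillaries, under the pia and beneath the choroid plexus epithelium, the layer that secretes cerebrospinal fluid. Few collagens are made by neurons, among them the transmembrane collagen Col25a1. In bulk tissue, fewer cells of a type and less RNA per cell cannot be told apart.

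Libraries held from 24693713 to 52180305 counts on genes. Values are CPM, counts scaled to a common depth with TMM factors. Log2 fold changes are from edgeR (quasi-likelihood test), with p adjusted by Benjamini-Hochberg over all genes tested, 16324 in the basal and 16820 in the learning experiment. A gene was called where its adjusted p was under 0.05 and its log2 fold change lay beyond 0.2 in either direction. Thy1, the gene whose promoter drives the transgene, lay between 786 and 913 CPM in the 8 WT libraries and between 1805 and 2352 CPM in the 6 THY-Tau22 libraries, so every library matched its genotype label. Mapt, the mouse gene for Tau, lay between 529.9 and 875 CPM over all libraries. None of the 8 hippocampal neuron markers was at 0 in any library. In both tables levels moved with the GC content of genes to a different degree in each library. Spearman's rho across genes was 0.085 and 0.275 in WT VEH, between 0.414 and 0.455 in WT VEH_HC, between -0.396 and -0.617 in the 4 THY-Tau22 libraries of the learning experiment, and 0.481 and -0.60 in the 2 basal TAU libraries. In the learning experiment GC dependence therefore cannot be told apart from genotype, nor from training in WT mice. The exons of collagen and laminin genes are richer in GC than those of all genes tested, with a median of 53.4% against 50.0%.

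Per length of their exons, Col4a2, Lamb2, Col4a1, Col25a1 and Col9a3 were the most abundant. In the learning experiment the mean level over 9 libraries, in CPM per kb of exons (RPKM), was 7.85 for Col4a2, 6.84 for Lamb2, 6.53 for Col4a1, 6.16 for Col25a1 and 5.69 for Col9a3. In the basal experiment the same 5 genes led at 6.59 RPKM for Col25a1, 6.03 for Col4a2, 5.97 for Lamb2, 5.17 for Col4a1 and 4.65 for Col9a3. Neighbours among these 5 overlapped in their ranges over libraries in both tables. Lamb1 and Lamc1, the beta and gamma chains of the most widespread laminins, and Col11a2 followed. A gap in the means then followed in the learning experiment, from 5.28 RPKM for Col11a2 to 1.67 for Lama2, the next in order and the alpha chain of the laminin around mature vessels and muscle. Single libraries crossed it: in WT VEH_HC replicate 2 Col9a3 was at its lowest, 3.18 RPKM, and Col6a1 at its highest, 3.42. Of the 3 collagen IV pairs, Col4a1 and Col4a2 stood far above the minor ones. Col4a5 and Col4a6 had means of 0.535 and 0.163 RPKM in the learning experiment, and Col4a3 and Col4a4, the chains of the kidney's filtration membrane, 0.0625 and 0.133.

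**Figure D1:**
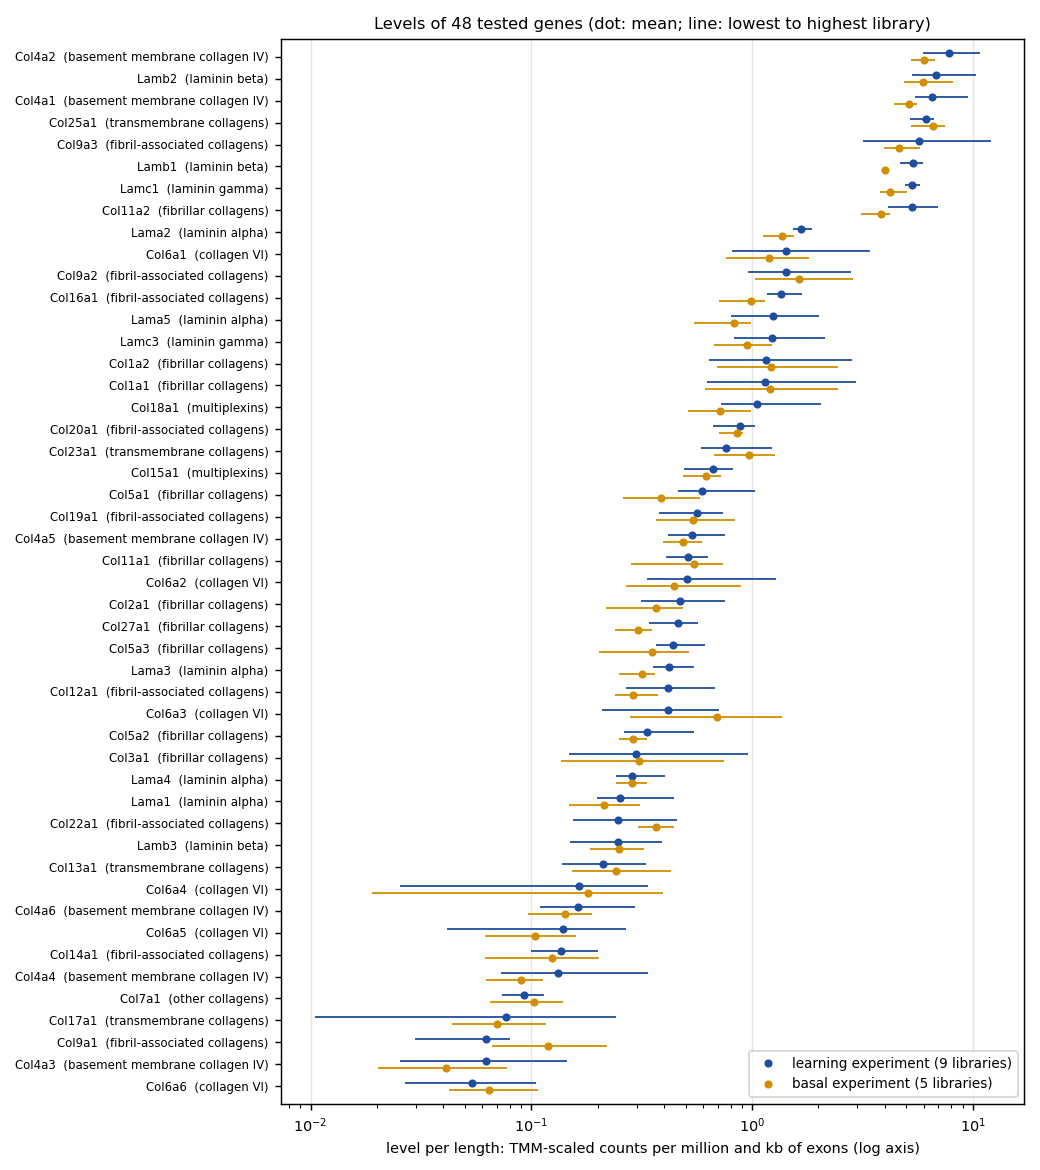
Level per length of 48 tested genes on a log axis, in CPM per kb of exons (RPKM), with the family in brackets; dots are means and lines run from the lowest to the highest library of each experiment. Col4a2 leads the learning experiment at 7.85 RPKM, and the long lines belong to Col17a1, Col6a4, Col3a1 and other genes that differed strongly between libraries.

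How far a gene varied between libraries differed widely. Lamc1, Lama2 and Lamb1 were the steadiest genes of the learning experiment, with a highest library 1.17, 1.21 and 1.27 times the lowest. At the other end stood Col17a1, at 23.2 times, and Col6a4, a collagen VI chain, at 13.3 times. Col6a4 had 0.162, 1.29 and 3.36 CPM in the basal WT libraries and 1.78, 2.03 and 0.217 CPM in WT VEH_HC, so that its spread lay within groups. Another collagen VI chain, Col6a3, read 16.3, 3.33 and 10.2 CPM in basal WT and 5.33 and 6.57 CPM in basal TAU. Neither passed the test in any comparison.

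Col1a1, Col1a2 and Col3a1, called the interstitial collagens below, were set apart by 1 library in each experiment. Col1a1, the alpha 1 chain of collagen I, had 5.85, 19.4 and 7.54 CPM in the WT VEH_HC libraries and 6.19 and 6.36 in WT VEH, and the alpha 2 chain Col1a2 had 7.76, 34.5 and 10.7 CPM in WT VEH_HC and 13.99 and 15.6 in WT VEH. Col3a1, which builds collagen III, read 1.30, 8.08 and 1.56 CPM in WT VEH_HC and 1.60 and 1.30 in WT VEH. In all 3 genes replicate 2 of WT VEH_HC was the highest of the 9 libraries, and the other home-cage libraries lay within or near the range of the trained mice. Col6a1 and Col6a2, chains of the beaded filaments around fibroblasts and vessels, had the same library on top, and WT VEH_HC read 7.20, 15.0 and 5.64 CPM for Col6a1 and 3.41, 10.7 and 2.84 CPM for Col6a2. Of the laminins, Lama5 read 11.4, 23.0 and 13.7 CPM and Lamb2 35.7, 58.3 and 38.9 CPM in WT VEH_HC, again highest in replicate 2. Col6a3, Col2a1, Col11a1 and Col5a3 were not raised in it, at 0.49, 0.59, 0.75 and 0.84 times the mean of the other home-cage libraries. In the basal experiment replicate 1 of basal TAU held the same place: Col1a1 was at 16.2 and 4.01 CPM in the 2 basal TAU libraries and at 4.57, 8.79 and 6.16 in basal WT, and no other basal library reached its level. Col1a2 stood at 29.7 and 8.42 CPM in basal TAU against 9.19, 14.1 and 12.3 in basal WT, and Col3a1 at 6.27 and 1.14 CPM against 1.16, 3.02 and 1.29. In basal TAU replicate 1 Col6a3, Col2a1, Col11a1 and Col5a3 stood at 0.81, 1.04, 0.67 and 0.89 times their level in replicate 2. Col1a1, like Col5a1, Col22a1 and Lamc3, shares some exonic bases with a gene on the other strand, where reads cannot be assigned.

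As a description chosen after these values were seen, 20 of 49 members (40.8%) were more than 1.5 times higher in WT VEH_HC replicate 2 than in the mean of the other home-cage libraries, a step that 5.54% of all genes made. Among them were Col1a1, Col1a2, Col3a1, Col5a1, Col6a1, Col6a2, Col18a1, Lama1, Lama4, Lama5, Lamb2 and Lamc3, while Col4a2, Col9a3, Lamb1 and Lamc1 were not. Lower by the same factor were 3 members, Col2a1, Col6a3 and Col17a1. In basal TAU replicate 1, 15 of 49 members (30.6%) were more than 1.5 times higher than in replicate 2, against 5.66% of all genes. There 4 members were lower by the same factor. The summed level of 14 markers of meninges and fibroblasts, none of them at 0 in any library, was 99.4, 306 and 129.9 CPM in WT VEH_HC and 280.2 and 128 CPM in basal TAU, with 106, 184 and 138 in basal WT. The 12 pericyte and smooth muscle markers summed to 179.8, 338 and 209.5 CPM in WT VEH_HC, and to 297 and 207 in basal TAU. The 14 endothelial markers summed to 311, 463 and 348 CPM in WT VEH_HC and 412 and 368 in basal TAU, with 374, 383 and 360.1 in basal WT. All 3 sums were thus highest, within their experiment, in the libraries in which the interstitial collagens were highest. The meningeal sum was also high in WT VEH, at 255 and 208 CPM, where Col1a1 lay within the range of the home-cage libraries and Col1a2 above 2 of the 3. There Igf2, which choroid plexus and meninges both express, made up a mean of 145 CPM. Gene by gene, 10 of the 14 meningeal markers were below 0 in WT VEH against WT VEH_HC, with a median log2 fold change of -0.411. What part meningeal or vascular tissue had in the collagen values was not tested beyond the fits with the marker score given below.

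**Figure D2:**
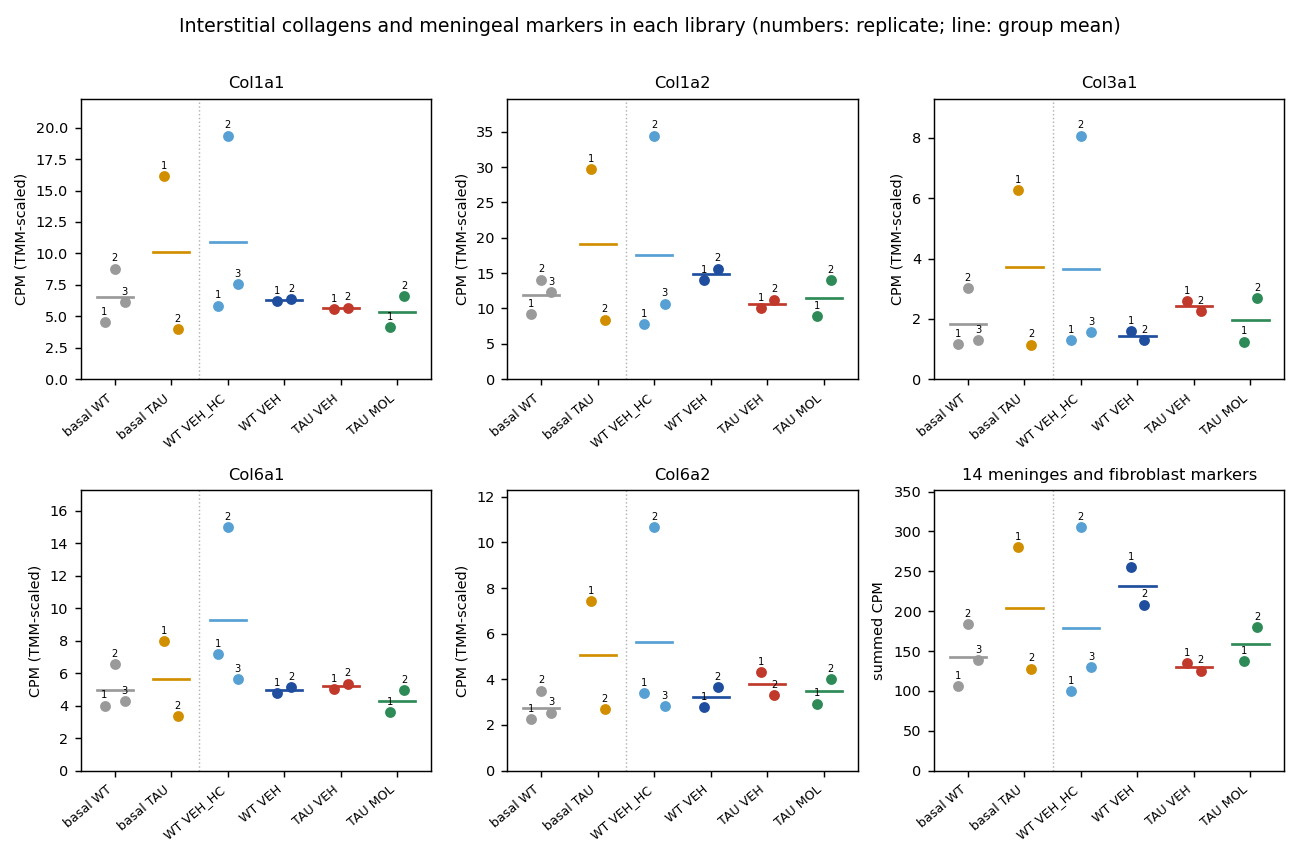
CPM of Col1a1, Col1a2, Col3a1, Col6a1 and Col6a2 and the summed CPM of 14 markers of meninges and fibroblasts, 1 point per library with its replicate number and a line at the group mean; the dotted line parts the basal from the learning experiment. WT VEH_HC replicate 2, at 19.4 CPM of Col1a1, and basal TAU replicate 1, at 16.2 CPM, stand above the other libraries of their groups in all 6 panels.

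Another 4 genes were high where markers of the choroid plexus were high. Col9a3, a chain of the fibril-associated collagen IX, had 46.5 and 29.2 CPM in WT VEH mice, 14.4, 12.2 and 17.2 in WT VEH_HC mice, 15.0 and 16.5 in TAU VEH mice and 24.4 and 21.9 in TAU MOL mice. Col17a1, a transmembrane collagen of hemidesmosomes in skin, had 1.40 and 1.03 CPM in WT VEH mice, 0.0763, 0.0604 and 0.130 in WT VEH_HC mice, 0.197 and 0.189 in TAU VEH mice and 0.312 and 0.599 in TAU MOL mice, from 3 to 58 reads a library. Both WT VEH libraries lay above all others of the learning experiment for both genes, and TAU MOL above TAU VEH. The 3' end of Col9a3 shares exonic bases with Tcfl5 on the other strand, and without strand the reads there cannot be assigned.

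The chains of a minor collagen IV network showed a similar order. Col4a3 stood at 1.45 and 0.662 CPM in WT VEH mice, 0.254, 0.363 and 0.434 in WT VEH_HC mice, 0.276 and 0.491 in TAU VEH mice and 0.801 and 0.873 in TAU MOL mice. Col4a4 read 2.80 and 1.40 CPM in WT VEH mice, 0.687, 0.604 and 0.650 in WT VEH_HC mice, 0.829 and 0.642 in TAU VEH mice and 1.38 and 0.923 in TAU MOL mice. WT VEH replicate 1 was the highest library of the learning experiment for all 4 genes, and for Col4a3 the second WT VEH library lay below both TAU MOL libraries. The summed level of 14 markers of choroid plexus epithelium, led by Ttr and with none at 0 in any library, was 2448 and 1589.5 CPM in WT VEH mice, 81.6, 79.3 and 237 in WT VEH_HC mice, 240.1 and 287 in TAU VEH mice and 783 and 715 in TAU MOL mice. In the basal experiment this sum was 339.6, 440.2 and 273 CPM in basal WT and 403 and 1323 in basal TAU. Basal TAU replicate 2, which led it, was also the highest basal library for Col9a3 (22.2 CPM, the others from 15.2 to 19.6), Col17a1 (0.673, the others from 0.251 to 0.405) and Col4a3 (0.774, the others from 0.201 to 0.378), though not for Col4a4 (0.909, the others from 0.517 to 0.943). Reads were few, from 8 to 20 a basal library for Col17a1 and from 7 to 23 for Col4a3. In the learning experiment Col4a3 had from 10 to 60 reads a library.

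**Figure D3:**
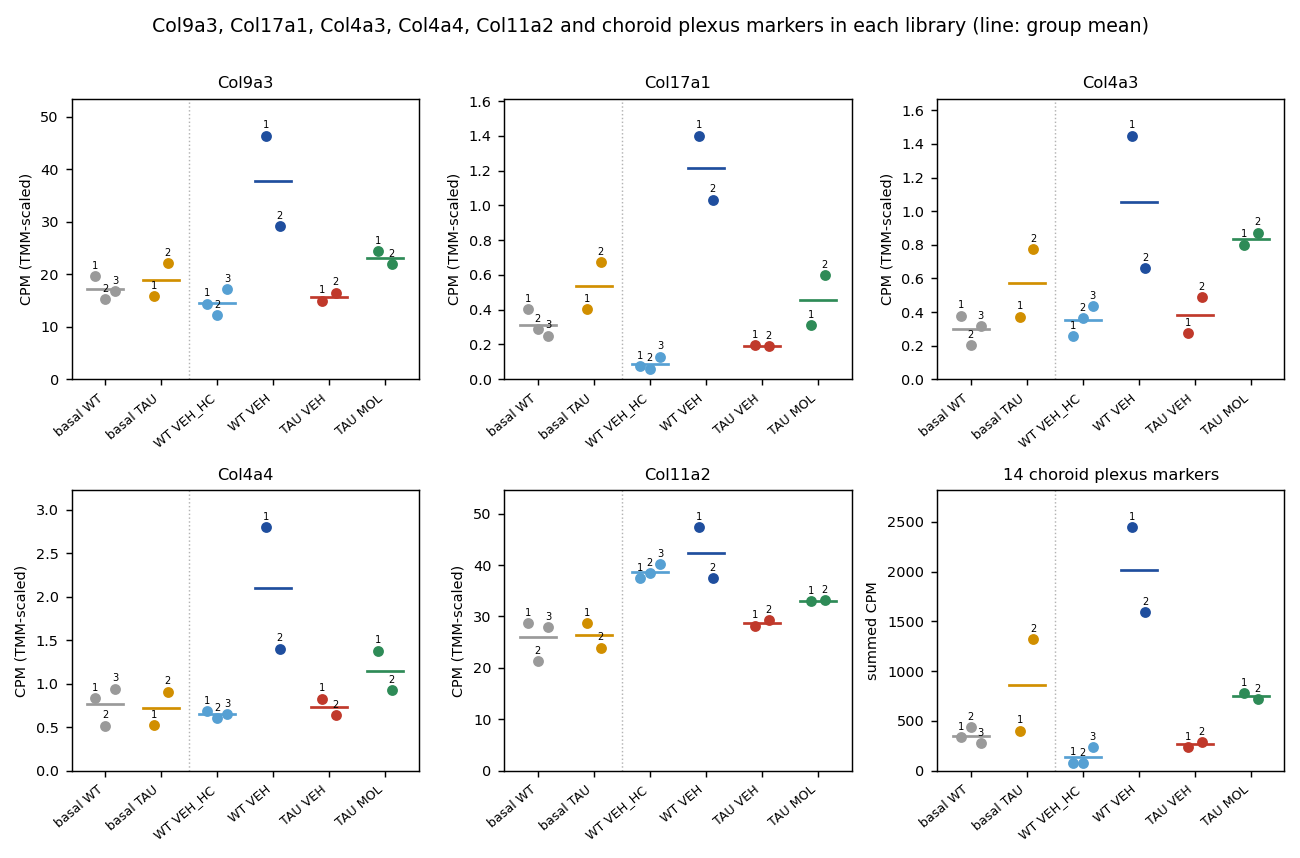
CPM of Col9a3, Col17a1, Col4a3, Col4a4 and Col11a2 and the summed CPM of 14 markers of choroid plexus epithelium, 1 point per library with its replicate number and a line at the group mean. The WT VEH libraries lead the marker sum at 2448 and 1589.5 CPM and lead Col9a3, Col17a1 and Col4a4 too, while Col11a2 does not follow the markers in WT VEH_HC.

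The sequences just before the annotated starts of these genes are shown because the genes were high in the same libraries. On NCBIM37 (mm9), 200 bases upstream of Col9a3 (chr2:180332295-180332494, plus strand) and of Col17a1 (chr19:47766585-47766784, minus strand) read as follows, with a CCAAT box or a TATA box (TATAAA) in capitals:
Col9a3 upstream: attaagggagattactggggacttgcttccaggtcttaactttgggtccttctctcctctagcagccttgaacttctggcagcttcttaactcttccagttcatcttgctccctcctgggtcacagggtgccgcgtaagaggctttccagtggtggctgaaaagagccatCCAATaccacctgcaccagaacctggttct
Col17a1 upstream: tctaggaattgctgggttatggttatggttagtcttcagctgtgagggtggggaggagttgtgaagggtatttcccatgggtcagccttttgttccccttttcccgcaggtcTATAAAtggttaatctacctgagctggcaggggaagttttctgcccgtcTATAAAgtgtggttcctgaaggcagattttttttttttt
Col4a4 and Col4a3 start head to head on chromosome 1, and only 71 bases lie between their annotated starts (chr1:82583425-82583495, given on the plus strand, on which Col4a3 lies), 69.0% of them G or C:
Col4a4 to Col4a3: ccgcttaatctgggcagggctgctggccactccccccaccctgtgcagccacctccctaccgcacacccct
On either strand the Col9a3 window held 1 CCAAT box and the Col17a1 window 2 TATA boxes, whereas 29.4% and 8.68% of all genes hold at least 1 such box in a window of this length. The GC box GGGCGG (36.3% of genes) and the OTX core TAATCC (5.54%) were found in neither window. The 71 bases held none of the 4 motifs, which occur in 24.4% (GC box), 13.5% (CCAAT), 3.56% (TATAAA) and 1.64% (TAATCC) of windows as short. The motifs were chosen after the values were seen, and a match of letters is a description of the window. The starts of Col4a6 and Col4a5 are also head to head, with 1308 bases between them, and those of Col4a1 and Col4a2 overlap by 22 bases.

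The basal comparison asks what Tau pathology changes at rest. None of the 49 tested members was called between basal TAU and basal WT (0.0245% of all genes tested were called, 4 of 16324), and 5 members had an unadjusted p under 0.05, against 4.92% of all genes. These were Col14a1 (0.94 on the log2 scale), Col6a2 (0.87), Col19a1 (0.62), Col23a1 (-0.50) and Col9a1 (-1.12), each with an adjusted p of 0.901. DESeq2 called none of the members either (0.228% of all genes with an adjusted p). The libraries of the groups did not overlap in 6 members higher and 2 lower in basal TAU, and in 9.01% and 9.49% of all genes. The median log2 fold change of the members was 0.19, with 36 of 49 above 0, while that of all genes was -0.007. Without basal TAU replicate 1 the median was -0.027, with 23 of 49 above 0.

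Of the interstitial collagens, Col1a1 had a log2 fold change of 0.64 ± 0.45 (SE), Col1a2 of 0.69 ± 0.39 and Col3a1 of 1.03 ± 0.59, with an adjusted p of 0.901 for each. Without basal TAU replicate 1 these values were -0.67, -0.47 and -0.65, and with the meninges and fibroblast marker score as a covariate, a fit added after the data were seen, Col1a1 was at -0.11. With the choroid plexus marker score instead, Col1a1 was at 1.34 ± 0.35, Col1a2 at 1.39 ± 0.23 and Col3a1 at 1.75 ± 0.54, none of them called. The largest changes among genes of at least 1 CPM were Col6a3 at -0.74 and Col23a1, a transmembrane collagen, at -0.50 on one side, and Col3a1 and Col6a2, at 0.87, on the other. For the basement membrane chains the 95% interval of the log2 fold change was -0.16 to 0.40 for Col4a1, -0.042 to 0.47 for Col4a2, -0.21 to 0.66 for Lamb2 and -0.10 to 0.48 for Lamc1. For Col4a2 both basal TAU libraries, at 44.7 and 42.3 CPM, lay above the 3 basal WT libraries at 38.9, 34.6 and 38.9 CPM. Among the partner genes, 0 of 5 basement membrane partners, 0 of 15 folding enzymes, 0 of 10 processing and crosslinking enzymes, 0 of 12 receptors and 0 of 6 proteases and inhibitors that were tested passed.

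Training in WT mice was compared with the home cage. Of the 49 members 8 were called (8.4% of all genes were), 4 higher and 4 lower in WT VEH, against 5.35% and 3.05% of all genes in each direction. An unadjusted p under 0.05 was found for 14 members and 27.8% of all genes, and groups without overlap for 4 members higher and 16 lower, against 23.0% and 20.8%. The 4 higher ones were the genes that were high with the choroid plexus markers: Col17a1 by 3.74 ± 0.41 on the log2 scale (adjusted p = 0.000618), Col9a3 by 1.37 ± 0.17 (adjusted p = 0.00147), Col4a4 by 1.71 ± 0.31 (adjusted p = 0.0112) and Col4a3 by 1.58 ± 0.38 (adjusted p = 0.0319). All 14 choroid plexus markers were called higher too, with a median of 3.49. With their score as a covariate, added after the data were seen, no member and no gene of the table was called (0.0%). The values were then 1.93 ± 1.62 for Col17a1, 0.37 ± 1.16 for Col4a4, -0.75 ± 1.27 for Col4a3 and -0.23 ± 0.41 for Col9a3, with wider errors than without the score. The 2 WT VEH libraries hold the highest marker levels of the 9, so training and choroid plexus content cannot be told apart here. Scaling by library size alone called 7 members (10.2% of all genes), the same 4 higher and 3 lower, with Col4a2, described next, no longer called, and moved the calls over all genes from 36.3% to 25.4% lower.

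Of the 4 lower members 3 are described here, each with its low values in WT VEH and no overlap between the groups. Col22a1, a fibril-associated collagen of tissue junctions, had 1.43 and 1.72 CPM in WT VEH mice and 2.44, 4.23 and 3.40 in WT VEH_HC mice (log2 fold change -1.10 ± 0.23, adjusted p = 0.0208). Col23a1 stood at 3.58 and 3.42 CPM against 5.16, 7.09 and 5.03 (-0.72 ± 0.16, adjusted p = 0.0268). Col4a2 read 55.7 and 53.2 CPM in WT VEH mice and 62.5, 71.6 and 63.3 in WT VEH_HC mice (-0.27 ± 0.07, adjusted p = 0.0430), so that its change was the smallest of the 8. Its partner Col4a1 was not called (-0.26 ± 0.13, adjusted p = 0.209).

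These calls rested on single libraries to different degrees. Col17a1 and Col9a3 were called whichever library was left out, whereas Col4a4 was called in 4 of the 5 fits (1.12 to 2.11) and Col4a3 in 3 (0.90 to 2.03). Without WT VEH_HC replicate 2, which was high in the interstitial collagens, 9 members were called (5.7% of all genes), 7 of them higher in WT VEH, with Col1a2, Col18a1 and Lama5 joining and Col4a2 among those leaving. Col1a2 then had a log2 fold change of 0.68, against -0.26 ± 0.47 with all libraries, and the median of the members moved from -0.265 to -0.006. Without WT VEH_HC replicate 3, 12 members were called (16.7% of all genes), and without WT VEH_HC replicate 1, 5 (3.67%). Without WT VEH replicate 1 it was 2 (0.422%) and without WT VEH replicate 2 it was 4 (1.63%), so that the calls over all genes moved as well. Over these 5 fits Col4a2 was called in 1 and Col22a1 and Col23a1 in 3 each. After the GC correction 7 members were called (4.55% of all genes), 6 of the 8 and Col25a1 (-0.25, adjusted p = 0.0470), while Col4a2 was not (-0.18, adjusted p = 0.12). In other fits DESeq2 called 8 of the 38 members to which it gave an adjusted p (13.8% of such genes), and with the meninges score as a covariate 13 were called (12.5%). In the fit that gave the 8 calls neither Col1a1 (-0.81 ± 0.41) nor Col3a1 (-1.35 ± 0.68) was called, nor were Lamb2 (-0.07 ± 0.16) and Lamc1 (0.016 ± 0.07). Col1a1 was among those called with the meninges score. With no filter on low counts both Col1a1 and Col3a1 were called (10.4% of all genes were).

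Some partners of these proteins were called between trained and untrained WT mice, where 5.35% of all genes were called higher and 3.05% lower. P4ha1, a subunit of the enzyme that hydroxylates prolines of collagen, was higher by 0.71 ± 0.07 (adjusted p = 0.000218), the only 1 of 15 folding and modification genes. Of 11 processing and crosslinking genes, Pcolce (1.26) and Pcolce2 (0.80), enhancers of procollagen cleavage, were higher and the proteases Bmp1 (-0.30) and Adamts3 (-0.33), which cut propeptides, lower. Nid2, which links laminin to collagen IV, was higher by 1.13 ± 0.20 (adjusted p = 0.0112), 1 of 5 basement membrane partners. Of 12 receptors Itgb1, the common beta chain of collagen and laminin integrins, was higher (0.34) and Itga11 lower (-0.78), and of 7 proteases and inhibitors Mmp14, a membrane-bound collagenase, was lower (-0.39).

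The comparison of trained THY-Tau22 with trained WT mice takes Tau pathology and the vehicle, CSP against saline, together during learning. It shares the 2 WT VEH libraries with the comparison above. Of the 49 members 8 were called (14.4% of all genes were), 2 higher and 6 lower in TAU VEH, against 3.61% and 10.8% of all genes. An unadjusted p under 0.05 was found for 13 members and 27.1% of all genes, and groups without overlap for 12 members higher and 19 lower, against 28.5% and 29.4%. The genes that were high with the choroid plexus markers were lower, with log2 fold changes of -2.63 ± 0.43 for Col17a1 (adjusted p = 0.00218), -1.55 ± 0.44 for Col4a3 (adjusted p = 0.0362), -1.49 ± 0.35 for Col4a4 (adjusted p = 0.0143) and -1.27 ± 0.20 for Col9a3 (adjusted p = 0.00180). All 14 choroid plexus markers were called lower, with a median of -2.72. With their score as a covariate no gene was called (0.0%). The values were then -1.34 ± 1.23 for Col17a1, 0.09 ± 0.94 for Col4a3, -0.55 ± 0.86 for Col4a4 and -0.15 ± 0.30 for Col9a3, again with wider errors.

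The other 2 lower members were Col11a2 and Col4a2. Col11a2, a chain of the cartilage collagen XI, had 28.2 and 29.3 CPM in TAU VEH and 47.4 and 37.4 in WT VEH (-0.56 ± 0.10, adjusted p = 0.00342). The WT VEH_HC libraries read 37.5, 38.5 and 40.2 CPM, above both TAU VEH libraries. Col4a2 read 39.6 and 40.5 CPM in TAU VEH and 55.7 and 53.2 in WT VEH (-0.44 ± 0.08, adjusted p = 0.00361). Both genes were called whichever library was left out. With the choroid plexus score Col4a2 was at -0.57 ± 0.18 and Col11a2 at -0.23 ± 0.21, neither of them called. Both are rich in GC, at 61.9% and 60.4%, and after the correction for GC content and length neither was called: Col11a2 stood at -0.21 (adjusted p = 0.255) and Col4a2 at -0.12 (adjusted p = 0.414).

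Higher in TAU VEH were Col25a1 and Col6a5. Col25a1, which neurons make and whose shed part is found in amyloid plaques, had 61.2 and 61.9 CPM in TAU VEH and 49.9 and 48.4 in WT VEH (0.33 ± 0.08, adjusted p = 0.0150). It read 61.8, 57.8 and 54.4 CPM in WT VEH_HC and 61.7 and 57.9 in TAU MOL, so that the WT VEH libraries were the 2 lowest of the 9, while the basal libraries had 68.5, 48.7 and 63.2 CPM in WT and 55.9 and 69.6 in TAU and overlapped. Col25a1 was not called when any 1 library was left out, with adjusted p from 0.0619 to 0.110, nor after the GC correction (0.20, adjusted p = 0.158). Col6a5, a collagen VI chain, had 2.51 and 1.89 CPM in TAU VEH and 0.387 and 1.14 in WT VEH (1.56 ± 0.47, adjusted p = 0.0483). Its home-cage libraries read 1.73, 0.906 and 0.932 CPM, and it was called in 1 of the 4 fits without a library.

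Of the anchors of the other networks, Col1a1 (-0.16 ± 0.46), Col1a2 (-0.48 ± 0.53), Col3a1 (0.75 ± 0.76), Col4a1 (-0.10 ± 0.14), Lamb2 (-0.45 ± 0.18) and Lamc1 (-0.12 ± 0.08) were not called. Without WT VEH replicate 1, TAU VEH replicate 1 or TAU VEH replicate 2 in turn 4 members were called (7.07%, 5.29% and 7.17% of all genes), namely Col9a3, Col17a1, Col11a2 and Col4a2, and without WT VEH replicate 2, 7 were (7.36%). After the GC correction 3 members were called (2.88% of all genes were), Col9a3 and Col17a1 lower and Col16a1, a fibril-associated collagen, higher. Not called then, with values near those before it, were Col4a3 (-1.62, adjusted p = 0.0745), Col4a4 (-1.41, adjusted p = 0.0513) and Col6a5 (1.51, adjusted p = 0.111). DESeq2 called 5 of the 38 members with an adjusted p (18.6% of such genes), and with the meninges score as a covariate 14 were called (18%). Across the 49 members the fold change fell with GC content, with a Spearman's rho of -0.371 (-0.517 over all genes tested, which share libraries and are not independent), and the median was -0.168 in the 26 members at or above the median GC content of the members and 0.061 in the 23 below. Scaling by library size alone moved the median of all genes by 0.15 on the log2 scale, turning the calls from 74.9% lower to 28.3% lower. The members called under that scaling (21.4% of all genes were) were the same 8 in the same directions, with Lama2 added as higher.

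Of 5 partner genes of the basement membrane 3 were called lower in TAU VEH, where 10.8% of all genes were. They were Nid2 (-1.23 ± 0.23, adjusted p = 0.00473), the perlecan gene Hspg2 (-1.07 ± 0.21, adjusted p = 0.00630) and Agrn, which encodes agrin (-0.45 ± 0.07, adjusted p = 0.00178), and after the GC correction only Nid2 was called. Of 12 receptors the laminin receptor genes Dag1 (-0.34) and Bcam (-0.80) were lower. Plod3, a lysyl hydroxylase, was lower (-0.25), 1 of 15 folding genes, and Pcolce was lower (-1.49) and Adamts3 higher (0.35) among 11 processing genes. None of 7 proteases and inhibitors was called. Of 14 endothelial markers 13 were below 0, with a median log2 fold change of -0.279, and 1, Slco1c1, was called lower. Of 12 pericyte and smooth muscle markers 8 were below 0, with a median of -0.039, and Cspg4 and Notch3 were called lower. What part the vascular markers had in the values of these genes was not tested.

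**Figure D4:**
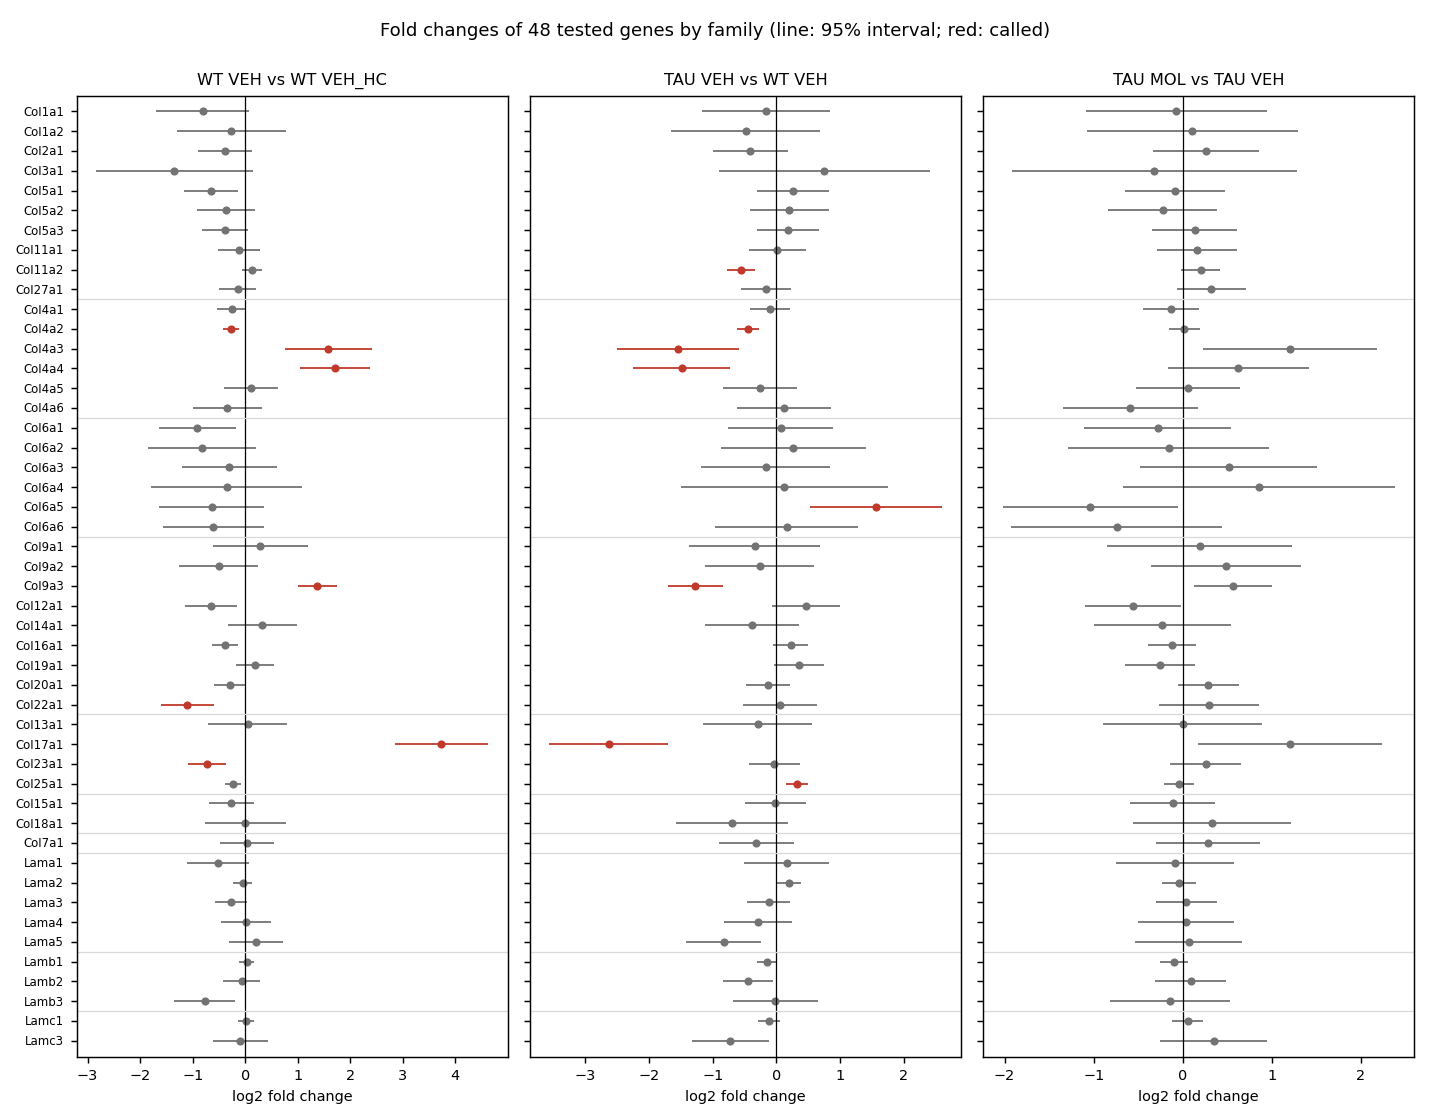
Log2 fold changes of 48 tested genes, ordered by family, for WT VEH against WT VEH_HC, TAU VEH against WT VEH and TAU MOL against TAU VEH; lines are 95% intervals from edgeR, and called genes are red. The first panel holds 7 called genes, the second 8 and the third none, and the first 2 share the WT VEH libraries.

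Col4a1 and Col4a2 assemble with each other into the main collagen IV network. With the filter on low counts, of the pair only Col4a2 was called in any comparison. Without it Col4a1 was called too in WT VEH against WT VEH_HC (10.4% of all genes were). Whether the chains differ in their change was not tested. Per length, the ratio of Col4a2 to Col4a1 was 1.30 and 1.26 in WT VEH mice, 1.38, 1.13 and 1.43 in WT VEH_HC mice, 1.03 and 0.991 in TAU VEH mice and 1.11 and 1.13 in TAU MOL mice. The 4 THY-Tau22 libraries of the learning experiment were thus below the 5 WT libraries, by a narrow margin for TAU MOL replicate 2 and WT VEH_HC replicate 2. In the basal experiment the order was the opposite, with 1.12, 1.19 and 1.10 in basal WT and 1.20 and 1.22 in basal TAU. The GC correction was made on CPM. As a ratio of CPM the values were 1.27 and 1.22 in WT VEH mice, 1.34, 1.10 and 1.39 in WT VEH_HC mice, 0.998 and 0.962 in TAU VEH mice and 1.08 and 1.10 in TAU MOL mice before it. After it they were 1.23 and 1.21 in WT VEH mice, 1.33, 1.08 and 1.32 in WT VEH_HC mice, 1.04 and 1.01 in TAU VEH mice and 1.11 and 1.10 in TAU MOL mice, and WT VEH_HC replicate 2 then lay below both TAU MOL libraries. The corrected ratios of CPM at rest were 1.07, 1.153 and 1.07 in basal WT and 1.14 and 1.23 in basal TAU, which overlapped. The ratio was looked at after the values were seen and was given no test. Reads over the 22 shared bases cannot be assigned to either gene in a protocol without strand.

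Among the laminins, the ratio of Lamb2 to Lamb1 per length was 1.12, 1.87 and 1.25 in WT VEH_HC and 2.08 and 1.26 in basal TAU, and was highest in the libraries with high interstitial collagens. The ratio of Lama5 to Lama2 was 1.17 and 0.904 in WT VEH mice, 0.617, 1.19 and 0.780 in WT VEH_HC mice, 0.465 and 0.561 in TAU VEH mice and 0.549 and 0.553 in TAU MOL mice, so that the 4 THY-Tau22 libraries lay below the 5 WT libraries. After the GC correction, as a ratio of CPM, WT VEH_HC replicate 1 was at 0.654 and the THY-Tau22 libraries between 0.661 and 0.779, so that the groups were no longer apart. In the basal experiment the ratio per length was 0.641, 0.487 and 0.635 in basal WT and 0.7004 and 0.553 in basal TAU, which overlapped. Both ratios were chosen after the values were seen and were given no test. Lama5, the alpha chain of mature endothelial basement membranes, read 9.18 and 12.0 CPM in TAU VEH and 21.0 and 16.0 in WT VEH, with an adjusted p of 0.0653. Lamb1 varied less, with 54.0 and 59.2 CPM in WT VEH mice, 56.5, 55.0 and 55.0 in WT VEH_HC mice, 49.6 and 52.3 in TAU VEH mice and 46.6 and 48.7 in TAU MOL mice.

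**Figure D5:**
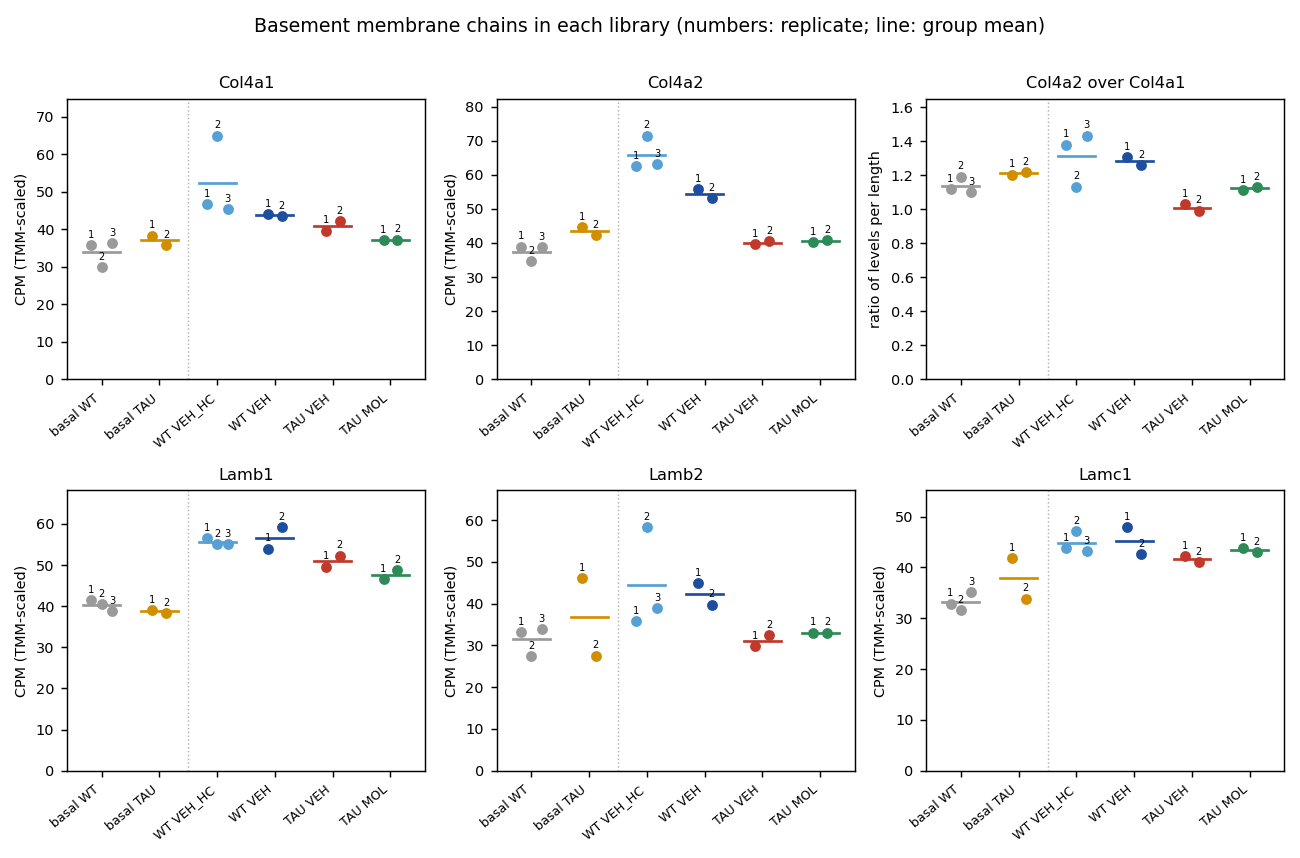
CPM of Col4a1, Col4a2, Lamb1, Lamb2 and Lamc1 and the ratio of Col4a2 to Col4a1 per length, 1 point per library with its replicate number and a line at the group mean. Col4a2 is lower in TAU VEH, at 39.6 and 40.5 CPM, than in WT VEH, at 55.7 and 53.2 CPM, and Col4a1 stands at 39.7 and 42.1 and 44.0 and 43.5 CPM in the same groups.

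The effect of CSP-TTK21 was measured as TAU MOL against TAU VEH. No member was called by edgeR (0.0% of all genes tested were), and 5 members had an unadjusted p under 0.05, against 6.33% of all genes. DESeq2 called none of the 48 members with an adjusted p and 54 genes in all (0.351%). Groups without overlap were found for 16 members higher and 8 lower in TAU MOL, against 21.5% and 17.4% of all genes. Of the 49 members 28 were above 0, with a median of 0.057, and the median of all genes was 0.009. The 5 members were Col9a3 (0.56 ± 0.20), Col4a3 (1.20 ± 0.45) and Col17a1 (1.20 ± 0.47), each higher in both TAU MOL libraries than in both TAU VEH libraries, and Col6a5 (-1.04 ± 0.45) and Col12a1 (-0.56 ± 0.25) on the other side. Their adjusted p lay between 0.641 and 0.770. All 14 choroid plexus markers were above 0 in this comparison with a median of 1.23, and none was called. The largest changes among members of at least 1 CPM on average were those of Col4a4 (0.62 ± 0.36), Col6a4 (0.86 ± 0.70), Col4a6 (-0.59 ± 0.35) and Col6a5. The 95% interval of the log2 fold change was -0.44 to 0.18 for Col4a1, -0.16 to 0.20 for Col4a2, -0.31 to 0.49 for Lamb2 and -0.12 to 0.23 for Lamc1, and was wider for the interstitial collagens, at -1.08 to 0.94 for Col1a1, -1.07 to 1.29 for Col1a2 and -1.92 to 1.28 for Col3a1. Of the partner genes none of 5 basement membrane partners, 15 folding, 11 processing, 12 receptor and 7 protease and inhibitor genes was called.

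TAU MOL against WT VEH shares libraries with both preceding comparisons. Of the 49 members 3 were called (5.63% of all genes were), 1 higher and 2 lower, against 0.612% and 5.02%. An unadjusted p under 0.05 was found for 9 members and 19.8% of all genes, and groups without overlap for 10 members higher and 13 lower, against 25.6% and 26.9%. Col4a2 was lower in TAU MOL, at 40.2 and 40.9 CPM (log2 fold change -0.43 ± 0.08, adjusted p = 0.0139), and so was Col17a1 (-1.43 ± 0.37, adjusted p = 0.0440). Lama5 (-0.76 ± 0.27), Col4a4 (-0.87 ± 0.33) and Col6a4 (0.98 ± 0.69) were among the largest changes of members of at least 1 CPM and were not called. Neither Col1a1 (-0.23 ± 0.46), Col1a2 (-0.37 ± 0.53), Col3a1 (0.43 ± 0.76) nor Col4a1 (-0.23 ± 0.14), Lamb2 (-0.36 ± 0.18) and Lamc1 (-0.06 ± 0.08) was called. With no filter Col1a2 and Lamb2 were called (6.13% of all genes were), and with only the groups compared Lamb2 was (9.19%). DESeq2 called 4 of the 15 members to which it gave an adjusted p (12.7% of such genes), and with the meninges score as a covariate 7 were called (8.75%). No member was called with the choroid plexus score (0.0119% of all genes) or after the GC correction (0.149%), nor when any 1 of the 4 libraries was left out (0.0116% or 0.0231%). Scaling by library size alone moved the median of all genes by 0.12 and the calls over all genes from 89.1% to 30.1% lower, with Col25a1, as higher, in place of Col17a1 among the 3 members called (6.44% of all genes were). Of the 14 choroid plexus markers 8 were called lower. Of the basement membrane partners Nid2 (-0.94), Hspg2 (-0.83) and Agrn (-0.29) were called lower, and none of them was called after the GC correction. All 14 endothelial markers were below 0, with a median of -0.187 and 1 called.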

How the data were processed

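RNA-seq counts per gene were deposited by the authors for 14 libraries, with a table of normalized counts, a signal in which the authors divided each library's counts by 1 factor and which was not used for tests. Per the study's methods, single-end reads from a TruSeq RNA kit were aligned to mm9 with TopHat 2.0.10 and Bowtie 2.1.0 and counted with HTSeq 0.5.4p3, and each library was taken as 1 mouse. The kit named does not mark strand. Groups followed the sample labels. From the counts, edgeR 4.0.16 in R 4.3.3 (TMM, filterByExpr, quasi-likelihood test, Benjamini-Hochberg adjustment over all genes) was fitted to the 5 basal and, in 1 fit, to the 9 learning libraries, with the learning libraries sharing 1 estimate of the spread. Genes were called where the adjusted p was under 0.05 and the log2 fold change beyond 0.2 either way. The scripts were tested on simulated data. Depth was 28639121 to 37681155 counts (basal) and 24693713 to 52180305 (learning), and 138 empty lines were left out. DESeq2 1.42.0, other scalings, no filter, a loess correction for GC content and length (span 0.3), a replicate block, fits of the compared groups alone and leaving out each library were alternatives. Annotation and sequence came from NCBIM37. The genes, the marker and partner lists and the tests were chosen with earlier results of these data known. Named were members that were called, the 2 of at least 1 CPM with the largest change in each direction, and Col1a1, Col1a2, Col3a1, Col4a1, Col4a2, Lamb2 and Lamc1. Other names were chosen after their values were seen. The values of 1 member are not reported here, though it is in the counts.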

Additional observations from a re-analysis of the deposited data

Results flagged for a closer look

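Col4a2 and Col5a2 had both basal TAU libraries on one side of the basal WT libraries and, after training, both TAU VEH libraries on the opposite side of the WT VEH libraries. Col4a2 had a log2 fold change of 0.22 between basal TAU and basal WT and of -0.44 between TAU VEH and WT VEH. Col5a2, a chain of the fibrillar collagen V, stood at -0.32 between basal TAU and basal WT and at 0.21 between TAU VEH and WT VEH. The difference between the experiments was not tested, and only the Col4a2 value after training was called. Of the 49 members 2 behaved in this way, against 420 of the 16216 genes tested in both tables (2.59%). TAU MOL was not part of this, and Col5a2 in TAU MOL replicate 2, at 2.52 CPM, lay below both WT VEH libraries (2.90 and 2.81 CPM). After the GC correction the values after training were -0.12 for Col4a2 and 0.068 for Col5a2.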

How the results depend on the processing

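Over 59 pairs of a named gene and a comparison, 687 of 828 values under an alternative kept direction and side of the threshold, 22 passed it newly, 70 no longer passed it and 49 turned direction, 3 of those in the 17 called pairs. For reversals and moved counts the cause was not tested. The basal count was 0 under every alternative run. The share of all genes called is in brackets. For WT VEH against WT VEH_HC, 8 members (8.4%) became 19 with no filter on low counts (10.4%), 3 with only the groups compared (1.89%), and 2 to 12 when 1 library was left out (0.422% to 16.7%). For TAU VEH against WT VEH, 8 (14.4%) became 15 with no filter (11.1%), 3 with the GC correction (2.88%), 5 with DESeq2 (18.6%), 14 with only the groups compared (21.0%), and 4 to 7 when 1 library was left out (5.29% to 7.36%). For TAU MOL against TAU VEH, 0 (0.0%) became 3 with no filter (0.898%) and 1 with only the groups compared (0.368%). For TAU MOL against WT VEH, 3 (5.63%) became 11 with no filter (6.13%), 0 with the GC correction (0.149%), 7 with only the groups compared (9.19%) and 0 when any 1 library was left out (at most 0.0231%). DESeq2 gave an adjusted p to 38 members in WT VEH against WT VEH_HC and in TAU VEH against WT VEH, and to 15 in TAU MOL against WT VEH. Among the named genes it gave none for Col17a1, Col4a3 and Col4a4 in the 3 comparisons with WT VEH, for Col6a5 in TAU VEH against WT VEH, and for Col6a4 and Col3a1 in TAU MOL against WT VEH, so these count as neither kept nor lost there.

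Samples that share a replicate number did not deviate together (correlations from -0.161 to 0.106), so the numbers were not taken to pair samples. With a replicate block the counts were 0 for basal TAU against basal WT (0.227% of all genes), 13 for WT VEH against WT VEH_HC (17.8%), 7 for TAU VEH against WT VEH (16.6%), 0 for TAU MOL against TAU VEH (0.0%) and 6 for TAU MOL against WT VEH (7.85%). With the replicate block and the GC correction they were 0, 10 (10.4%), 4 (4.6%), 0 and 0 (0.565%) in the same order. With the replicate block Lamc1 turned to -0.0095 in WT VEH against WT VEH_HC.

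The marker scores were added as covariates after the data were seen. With the choroid plexus score the counts were 0 for WT VEH against WT VEH_HC, TAU VEH against WT VEH and TAU MOL against WT VEH, and with the meninges score 13, 14 and 7. With the choroid plexus score these log2 fold changes turned direction: Col9a3 -0.23, Col4a3 -0.75, Col3a1 3.24, Col1a1 1.51, Col1a2 2.71, Col4a1 0.48 and Lamb2 0.53 (WT VEH against WT VEH_HC), Col4a3 0.095 and Col3a1 -2.28 (TAU VEH against WT VEH), Col4a6 0.060, Col1a1 0.71, Col3a1 1.17 and Col4a1 0.12 (TAU MOL against TAU VEH), and Col6a4 -0.98 and Col3a1 -1.11 (TAU MOL against WT VEH). With the meninges score Col1a1 was at -0.11 in the basal comparison, and Col1a2 at 0.29 and Lamb2 at 0.037 in WT VEH against WT VEH_HC.

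With the GC correction Lamb2 turned to 0.0060 in WT VEH against WT VEH_HC, Col1a1 to 0.10 and Col4a1 to 0.13 in TAU VEH against WT VEH, and Col4a2 to -0.10 and Lamb2 to -0.012 in TAU MOL against TAU VEH. With the block added to it, Col1a1 was at 0.13, Col4a1 at 0.13, Col4a2 at -0.10 and Lamb2 at -0.014. With library size alone Col4a1 was at 0.048 and Lamc1 at 0.027 in TAU VEH against WT VEH, Col4a2 at -0.0075 in TAU MOL against TAU VEH and Lamc1 at 0.058 in TAU MOL against WT VEH.

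Leaving out 1 library turned these values, given as ranges over the libraries left out. In the basal comparison, where leaving out basal TAU replicate 1 gave the lowest value each time, they were -0.014 to 1.42 for Col6a2, -0.65 to 1.78 for Col3a1, -0.67 to 1.31 for Col1a1, -0.47 to 1.33 for Col1a2 and -0.17 to 0.55 for Lamb2. In WT VEH against WT VEH_HC, where leaving out WT VEH_HC replicate 2 gave the highest for the first 3, they were -1.74 to 0.016 for Col3a1, -0.61 to 0.68 for Col1a2, -0.20 to 0.18 for Lamb2 and -0.074 to 0.10 for Lamc1. In TAU MOL against TAU VEH they were -0.45 to 0.24 for Col1a1, -0.25 to 0.41 for Col1a2 and -0.97 to 0.14 for Col3a1. In TAU MOL against WT VEH they were -0.61 to 0.080 for Col1a1, -0.22 to 0.89 for Col3a1 and -0.15 to 0.037 for Lamc1.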
